A study of Mus musculus with 2 samples.

Results

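Nr4a1, Nr4a2 and Nr4a3 are the 3 mouse genes of the Nr4a family of nuclear receptors, picked by gene symbol from the 55536 annotated genes of the deposited tables. The proteins are also known as Nur77, Nurr1 and Nor1. They are called orphan receptors because no physiological ligand is established for them, and their activity follows mostly from how much of them is made. Their genes are immediate early genes, transcribed within minutes of a stimulus without new protein synthesis, in many cells through CREB family factors bound to cAMP response elements. The receptors bind DNA as monomers or dimers, Nr4a1 and Nr4a2 also as heterodimers with retinoid X receptors, and in macrophages they are known for restraining inflammatory transcription.

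The RNA came from primary bone marrow-derived macrophages of C57BL/6J mice, stimulated for 25 min with lipid A, the part of bacterial lipopolysaccharide that TLR4 recognises, at 100 ng/ml. Ribosomal RNA was depleted and total RNA was sequenced from a fraction that one label calls nucleoplasmic and others nuclear. Both libraries belong to this 1 group, with separate biological replicate numbers and the same donor entry, so the SDs below (n = 2) measure the spread between these libraries. No untreated, whole-cell or later sample was analysed here, so the values are levels in stimulated cells, no induction was measured, and no test was possible.

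The gene table held 13506939 estimated counts in replicate 1, made from 500 ng of RNA, and 17932332 in replicate 2, made from 1 µg. All 8 macrophage markers looked at were above 1 TPM (transcript copies scaled to a fixed total per library) in both libraries, with a summed level of 3826 and 3154 TPM. None of the 3 B cell, 4 T and NK cell and 3 fibroblast markers reached 1 TPM in both. S100a9 did so among 5 neutrophil markers, at 1.72 and 1.58 TPM, and Pf4 among 5 erythroid and megakaryocyte markers, at 70.3 and 48.3 TPM. In bulk RNA, fewer cells that express a gene and less RNA per cell cannot be told apart.

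The sequences just upstream of the start sites show what the 3 genes share outside the expression values. They are from RefSeq, on GRCm38.p6, 5′ to 3′ on the strand of the gene, and end at the base before an annotated first exon, for Nr4a1 that of the main transcript Nr4a1-201. Capitals mark TGACG or its reverse complement CGTCA, the core of the cAMP response element that CREB family factors bind. Nr4a1 is shown at chr15:101266596-101266845 (+), Nr4a2 at chr2:57124004-57124253 (−) and Nr4a3 at chr4:48045055-48045152 (+).
Nr4a1: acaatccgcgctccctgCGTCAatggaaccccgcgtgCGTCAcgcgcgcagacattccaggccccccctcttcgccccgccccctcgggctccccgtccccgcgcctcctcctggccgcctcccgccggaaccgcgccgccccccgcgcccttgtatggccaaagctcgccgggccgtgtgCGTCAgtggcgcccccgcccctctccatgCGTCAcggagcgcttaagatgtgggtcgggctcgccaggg
Nr4a2: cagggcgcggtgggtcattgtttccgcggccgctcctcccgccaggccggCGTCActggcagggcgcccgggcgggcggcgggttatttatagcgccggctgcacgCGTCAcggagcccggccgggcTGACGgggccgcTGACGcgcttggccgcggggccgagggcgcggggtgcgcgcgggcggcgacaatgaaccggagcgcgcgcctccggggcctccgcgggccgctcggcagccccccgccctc
Nr4a3: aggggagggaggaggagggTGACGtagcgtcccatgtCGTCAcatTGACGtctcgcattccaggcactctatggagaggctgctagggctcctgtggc

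In windows from 250 bases before to 50 after each start, searched on both strands, TGACG occurred 4 times in each of the 3 genes. At least 1 match was present in 20.8% of all 32851 RefSeq windows of this length and at least 4 in 0.231%. The fourth match of Nr4a3 lies outside the stretch shown. In Nr4a1 all 4 matches were part of TGCGTCA, which is the palindrome TGACGTCA with 1 base left out. TGCGTCA was present in 2.12% of all windows, and the Nr4a1 window was the only 1 of the 32851 with 4 matches. Since TGCGTCA is the sequence at the Nr4a1 matches themselves, this count describes the window and tests nothing. The full palindrome, the NBRE octamer AAAGGTCA that Nr4a receptors bind, and the CArG box of serum response factor had no match in the 3 windows. They were present in 1.79%, 1.51% and 1.63% of all windows. A kappaB site matched once in Nr4a1 and in neither of the others, and 8.46% of all windows hold at least 1. The windows were rich in G and C, with 72.3% in Nr4a1, 81.7% in Nr4a2 and 64.7% in Nr4a3 against a median of 52.7%. The part of base composition in the match counts was not tested. These matches describe letters and not binding.

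Nr4a1 was by far the most abundant of the 3 in the nucleoplasmic RNA. Nr4a1 (ENSMUSG00000023034.7, mm10 chromosome 15, 101254269 to 101274795, plus strand) had 8599 estimated counts in replicate 1 and 12606 in replicate 2. Scaled by length and library, its level was 431 and 348 TPM (389 ± 58.7). It ranked 63rd and 74th among 22028 protein-coding genes, 9806 of which (44.5%) had at least 1 TPM in both libraries. Its CPM, the count scaled only by the library's total, was 637 with an exact 95% Poisson interval of 623 to 650.2 in replicate 1, and 703 with 691 to 715 in replicate 2. Both libraries therefore placed Nr4a1 in the top 1% of protein-coding genes, and these intervals cover counting error only.

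Nr4a2 was expressed at a low to moderate level that depended on the library. Nr4a2 (ENSMUSG00000026826.13, chromosome 2, 57106830 to 57124003, minus strand) had 535 counts and 15.3 TPM in replicate 1 but 228 counts and 3.53 TPM in replicate 2 (9.40 ± 8.29 TPM). Its rank among protein-coding genes was 3979 and 7321. Its CPM was 39.6 (36.3 to 43.1) and 12.7 (11.1 to 14.5), intervals that lie far apart. The interval of TPM in the authors' deposited table ran from 13.1 to 29.1 in replicate 1 and from 3.11 to 8.67 in replicate 2. The deposited intervals of Nr4a2 did not overlap between the libraries. How often such intervals fail to overlap over all genes was not worked out. Their bounds belong to a second estimate. For Nr4a1 the TPM lay above its own bounds in both libraries, 384 to 411 and 322 to 340. The median log2 ratio of TPM + 1, replicate 2 over replicate 1, was −0.42 over 14584 genes, and the deposited intervals are not corrected for it.

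Nr4a3 had the lowest mean of the family. Nr4a3 (ENSMUSG00000028341.9, chromosome 4, 48045153 to 48086447, plus strand) had 227 and 241 counts, which gave 8.69 and 4.20 TPM (6.45 ± 3.17). Its CPM was 16.8 (14.7 to 19.1) and 13.4 (11.8 to 15.2), with intervals that overlap, while the deposited intervals of its TPM, 6.37 to 9.97 and 3.12 to 5.17, did not. Its rank was 5792 and 6875. No other annotated gene overlaps any of the 3 loci, and the deposited posterior SD of the gene's count was 0 for each of them in both libraries.

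The order within the family was thus fixed only at the top. Nr4a1 exceeded Nr4a2 by 28.2-fold in replicate 1 and 98.5-fold in replicate 2, and exceeded Nr4a3 by 49.6- and 82.8-fold, all on the TPM scale. Nr4a2 was 1.76 times Nr4a3 in replicate 1 and 0.84 times Nr4a3 in replicate 2. These neighbours changed places between the libraries, and their means did not differ beyond their spread. In the alignment-free table, made by the authors straight from the reads, Nr4a2 stayed above Nr4a3 in both libraries, by 6.74- and 2.77-fold in TPM. That table gave CPM of 627 and 692 for Nr4a1, 44.1 and 13.8 for Nr4a2, and 22.7 and 14.6 for Nr4a3. These were near those of the gene table, except for Nr4a3 in replicate 1, which had 16.8 CPM there.

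**Figure D1:**
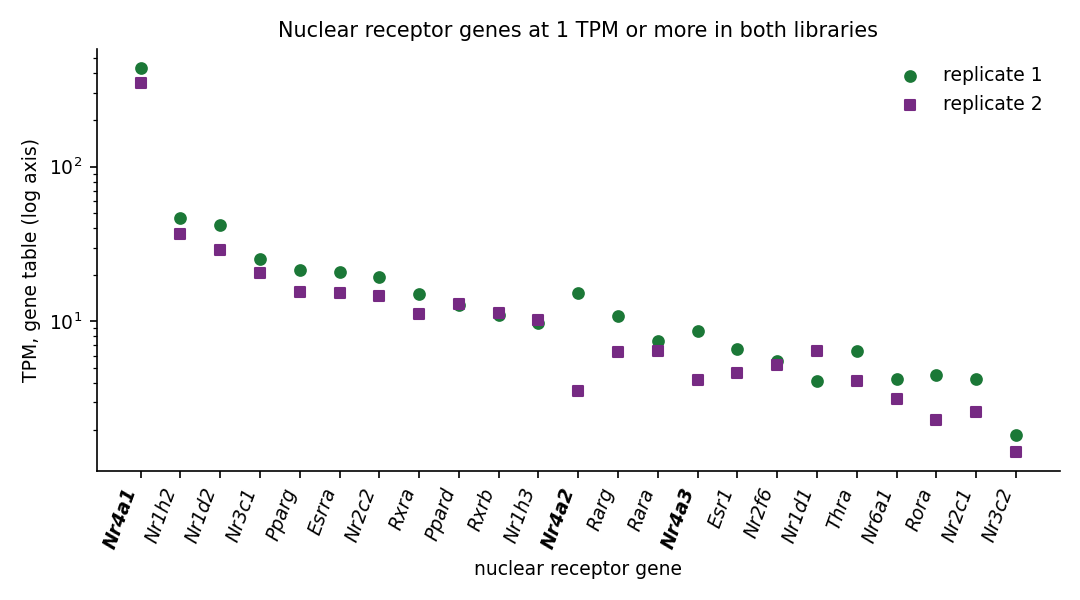
Level (TPM from the gene table, log axis) of each nuclear receptor gene with at least 1 TPM in both libraries, ordered by mean. Circles are replicate 1 and squares replicate 2, and the Nr4a genes are in bold. Nr4a1 stands at 431 and 348 TPM, and Nr4a2 has the widest gap between its points, 15.3 against 3.53 TPM.

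Nr4a1 was the most abundant nuclear receptor RNA. It ranked first of 49 nuclear receptor genes in both libraries and made up 58.1% and 60.4% of their summed TPM (59.2 ± 1.66%). The next receptor was Nr1h2, the oxysterol receptor LXR beta, at 46.6 and 36.8 TPM, so that Nr4a1 was 9.26 and 9.44 times the next. By counts, which short transcripts do not raise, the share of Nr4a1 was 43.3% and 48.9%, and it was 4.81 and 6.62 times the next receptor. The next receptor by alignment-free TPM was Esrrg, an estrogen-related receptor named after its value was seen, at 84.1 and 22.3 TPM, and Nr4a1 was 5.63 and 6.13 times its level. The gene table gave Esrrg only 6 counts and 0, or 0.09 and 0 TPM, so its high level was in the alignment-free table alone. After Nr1h2 in the gene table came Nr1d2, a heme-binding repressor of the circadian clock, at 42.1 and 28.7 TPM. Nr3c1, the glucocorticoid receptor, had 25.3 and 20.6 TPM, and Pparg, a fatty acid sensor, 21.5 and 15.4 TPM. Nr4a2 ranked 8th and 19th of the 49, and Nr4a3 14th and 17th. Of the 46 receptors outside the family, 20 had at least 1 TPM in both libraries, and 16 by alignment-free TPM. Of all protein-coding genes 44.5% reached that level in the gene table, so receptors as a list did not stand out. Among those with 0 counts in both libraries were Ppara, Nr1h4, Rxrg and Nr0b2. With 3 counts taken as the limit that a 0 leaves, these genes may have up to 0.222 CPM in replicate 1 and 0.167 CPM in replicate 2. The plot of receptor levels shows the distance between Nr4a1 and the rest.

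Against other immediate early genes the family split. Nr4a1 had the highest mean TPM of all, above the 20 other immediate early factors listed, although Fos was higher than it in replicate 1. By counts Egr1 and Klf6 exceeded Nr4a1 in both libraries and Fos in replicate 1. The full coding transcript Nr4a1-201 alone had 234 and 207 TPM. Fos, a partner of Jun proteins in AP-1, had 457 and 243 TPM. Junb, another AP-1 subunit, had 331 and 322 TPM, the zinc finger factor Egr1 274 and 301 TPM, and Klf6, a Krüppel-like factor, 288 and 280.5 TPM. Nr4a2 and Nr4a3 each lay below 16 of the 20. Of these factors 18 had at least 1 TPM in both libraries, against 44.5% of all protein-coding genes. The lowest was Fosl1 with 3 counts and 0.

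The known activators and partners of the family were mostly present. All 19 genes of a list of upstream activators had at least 1 TPM in both libraries, against 44.5% of all protein-coding genes. Mef2c had 85.8 and 56.1 TPM, Mef2a 75.5 and 58.5 TPM and Mef2d 43.8 and 33.0 TPM. MEF2 factors are known to act on the Nr4a1 promoter in T cells. Nfkb1, a subunit of NF-kB, had 48.1 and 35.2 TPM. The lowest was Rps6ka5, the kinase MSK1 that phosphorylates CREB and histone H3, at 3.30 and 1.90 TPM. Creb1 itself, named here outside the rule for named genes and after its values were seen, had 31.7 and 29.9 TPM. Of 13 partners and coregulators, 12 were at 1 TPM or more in both libraries, and 10 by alignment-free TPM. The corepressor Ncor1 had 114 and 80.1 TPM, the deacetylase Hdac1 77.5 and 68.2 TPM, and the coactivator Ncoa3 54.9 and 35.7 TPM. Among the heterodimer partners, Rxrg had 0 counts in both libraries. Rxra had 15.1 and 11.2 TPM and Rxrb 11.0 and 11.4 TPM, both named after their values were seen.

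Between the libraries Nr4a2 was the member that differed most. The log2 ratio of replicate 2 to replicate 1, on the TPM + 1 scale and minus the median of −0.42, was −1.42 for Nr4a2. The median is that of the 14584 genes that had 10 or more counts in each library. Around it, −1.64 to −1.20 is the counting error of a plain count ratio, without the pseudocount. The ratio corresponds to 2.68-fold less in replicate 2 on this scale. A pseudocount of 1 TPM makes ratios of low levels smaller, and with 0.1 TPM the ratio was −1.54. Over 2-fold lower was 1 of the 3 genes, against 0.487% of all genes compared, and over 2-fold higher was 0 of 3, against 1.22%. A ratio below that of Nr4a2 was found in 0.158% of the genes. With 1 library on each side there is no replicate check of this difference, and the RNA input, which differed in the same way, cannot be told apart from it.

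For Nr4a3 the centred ratio was −0.47 (−0.74 to −0.21), with 6.19% of genes lower. For Nr4a1 it was 0.12 (0.076 to 0.15), and it turned to −0.31 without subtraction of the median and to −0.60 in the alignment-free table. On the CPM scale, Nr4a2 was 3.12-fold lower in replicate 2 in the gene table and 3.19-fold lower in the alignment-free table. So both tables gave a like difference for Nr4a2, and neither put Nr4a1 or Nr4a3 past 2-fold on that scale.

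**Figure D2:**
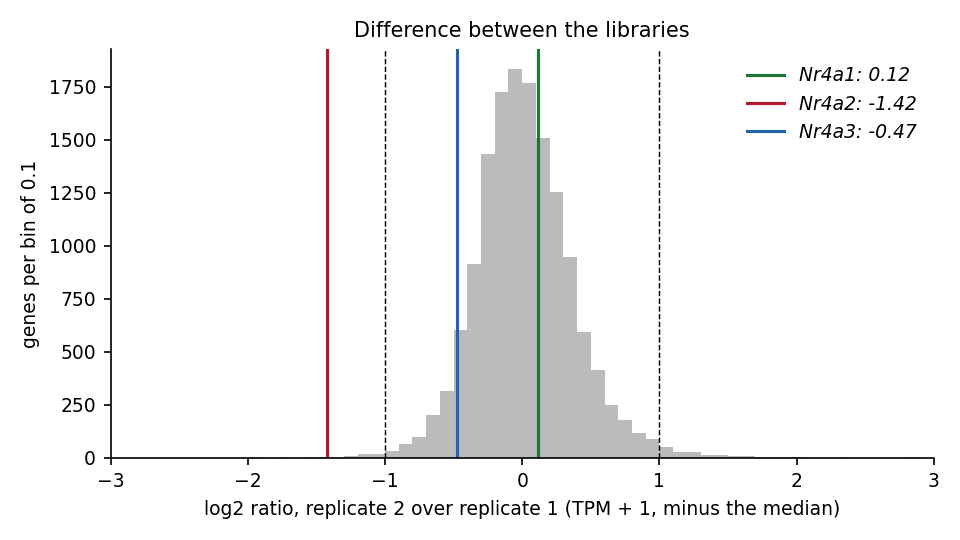
Number of genes (y axis, bins of 0.1) by log2 ratio of replicate 2 to replicate 1 on the TPM + 1 scale, minus the median, for 14584 genes. Dashed lines mark 2-fold, and coloured lines mark Nr4a1 at 0.12, Nr4a2 at −1.42 and Nr4a3 at −0.47. Nr4a2 lies in the far lower tail.

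The other immediate early factors mostly had ratios above that of Nr4a2. Their 19 countable members had a median centred ratio of 0.57 and a range of −0.80 to 1.16, so Nr4a2 lay below all of them on the TPM + 1 scale. On the CPM scale Klf4, with 39 and 16 counts and a log2 ratio of −1.69, lay below Nr4a2 at −1.64. Over 2-fold higher in replicate 2 were 2, Egr3 at 1.16 and Maff at 1.07, and none was over 2-fold lower. The 3 that lay below Nr4a3 were Fosb at −0.80, Fosl2 at −0.71 and Fos at −0.48, all of the Fos family. Egr3, Maff, Fosb, Fosl2 and Klf4 were named after their values were seen. The 20 countable receptors outside the family ran from −0.31 to 0.97, so Nr4a2 and Nr4a3 lay below all of these on the TPM + 1 scale. On the CPM scale none of the 20 lay below Nr4a2, but 4 lay below Nr4a3, whose log2 ratio was −0.32: Nr1d2, Nr6a1, Rarg and Rora, the last 3 named after their values were seen. The upstream activators had a median of 0.012, with a lowest ratio of −0.80 in Crem, a CREB family gene that also makes a repressor, named after its value was seen. The macrophage markers had a median of 0.047 and ran from −0.13 to 0.46.

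By likeness of level, the protein-coding genes nearest to Nr4a1 over the 2 libraries were Ccnl1 (distance 0.10 in log2(TPM + 1)), Tmsb4x (0.14) and Rbm39 (0.16). Those nearest to Nr4a2 were Hmga2 (0.23), Ndufv2 (0.26) and Blmh (0.32), and those nearest to Nr4a3 were Prkci (0.0066), Dhx32 (0.0093) and Srp9 (0.011). Hmga2, an architectural chromatin protein, had 15.5 and 4.32 TPM, the nearest pair of levels to that of Nr4a2. The distances of Nr4a2 were the longest of the 3, so few genes had its pair of levels.

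The 3 genes have 14 annotated transcripts, and the estimates divided each gene differently by transcript type. Nr4a1 fell into protein-coding and retained-intron transcripts. Nr4a2 fell into protein-coding transcripts, processed transcripts and a transcript annotated for nonsense-mediated decay. Nr4a3 fell into protein-coding and processed transcripts. Processed transcripts have no annotated reading frame. Nonsense-mediated decay degrades many mRNAs whose stop codon lies far enough upstream of an exon junction, and it acts when the mRNA is translated. A share of TPM weighs each count by 1 over the effective length, so short transcripts take a larger share of TPM than of counts. Both shares are given.

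**Figure D3:**
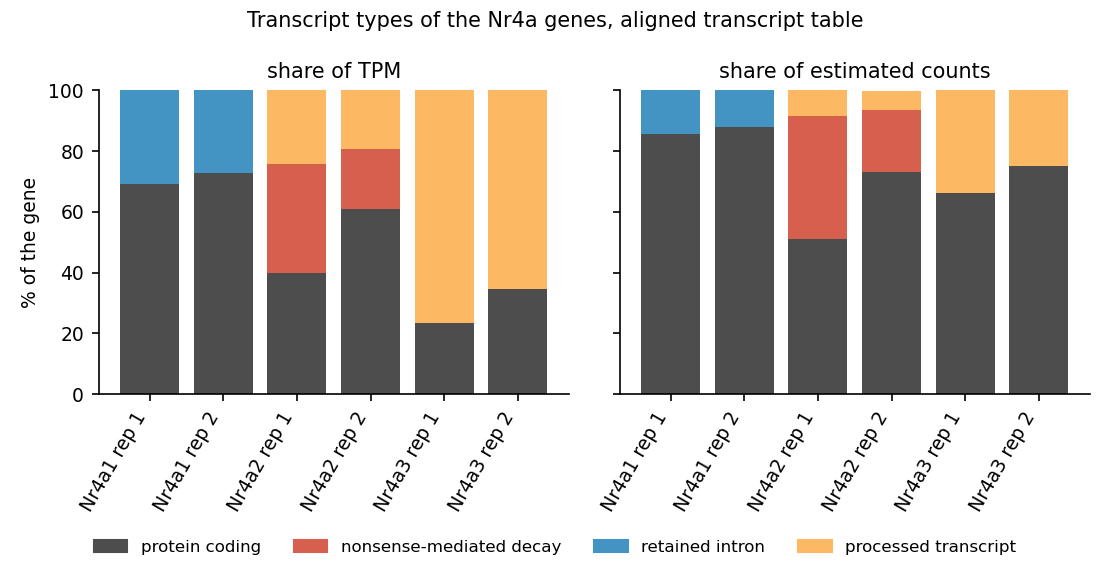
Share (%) of each gene by transcript type in the aligned transcript table, per library, as share of TPM on the left and share of estimated counts on the right. Protein-coding transcripts hold most counts of every gene in both libraries, the nonsense-mediated decay type appears for Nr4a2 only, and for Nr4a3 processed transcripts hold 76.6% and 65.4% of TPM but 33.8% and 25.0% of counts.

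Nr4a1 RNA was mainly the full coding transcript. Nr4a1-201, with 7 exons, had 7243 counts in replicate 1 and 10898 in replicate 2, 84.2% and 86.5% of the gene's counts. Its share of TPM was lower, 54.3% and 59.5%. The fragment Nr4a1-203, 344 bases long, took 14.8% and 13.4% of TPM from only 115 and 174 counts. Nr4a1-202, which starts 5′ of the others at 101254269, had 9.76 counts and 0, but 197 and 274 in the alignment-free table. Practically all counts therefore went to transcripts of the start at 101266846, whose upstream sequence is shown above, or to the retained-intron fragment.

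The retained-intron transcript Nr4a1-204 held 30.8% and 27.1% of TPM (29.0 ± 2.63%) and 14.3% and 12.2% of counts, 1231 and 1534. It ends inside the intron after exon 6 (chr15:101273194-101273995, 802 bases) and covers 654 of its bases, 81.5%. The line shows its passage from exon 6 into the intron, with the first intron bases, opening with the GT of the donor site, in capitals.
Nr4a1-204: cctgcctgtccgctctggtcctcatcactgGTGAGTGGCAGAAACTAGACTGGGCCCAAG

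Over all protein-coding genes, retained-intron transcripts held 20.6% of TPM and 15.5% of counts. Among 6881 protein-coding genes with such a transcript, the median share was 29.2% of the gene's TPM, and 49.5% of these genes lay below Nr4a1. By the alignment-free table the share of Nr4a1 was 15.3 ± 0.33%, the median 34.0%, and 18.6% of the genes lay below it. The share was thus near the median of such genes in the aligned table and below it in the other, and within each table the libraries were alike. Unspliced precursor and a stable intron-retaining RNA were not told apart, since both give reads in the intron.

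Nr4a2 carried the decay transcript. Nr4a2-206 had 218 counts in replicate 1 with a deposited posterior SD of 31.8, and 46.9 in replicate 2 with an SD of 15.5. This was 40.7% and 20.6% of the gene's counts and 35.9% and 19.7% of its TPM (27.8 ± 11.5%). In replicate 1 it was the leading transcript of the gene by both measures, ahead of the coding transcripts Nr4a2-203 and Nr4a2-201 with 142 and 131 counts. In replicate 2 the leading transcript was Nr4a2-201, with 153 counts and 55.9% of TPM. Transcripts of this type held 2.43% of counts and 2.54% of TPM over all protein-coding genes. Among 3439 protein-coding genes that have one, the median share of TPM was 4.86%, and 86.8% of the genes lay below Nr4a2. With alignment-free values the share of Nr4a2 was 5.74% and 4.31% of TPM (mean 5.03%), the median of the same genes was 8.75%, and 37.2% of them lay below Nr4a2. Its high place among genes by share of TPM thus held in the aligned table only. In the alignment-free table the short transcript Nr4a2-204 took 78.9% and 69.4% of the gene's TPM, from 59 and 14 counts. By alignment-free counts Nr4a2-206 held 29.4% and 14.9%, and its place among genes by counts was not worked out.

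The early stop of Nr4a2-206 follows a shortened exon 7. This exon leaves out the first 121 bases (chr2:57108619-57108739) of the 179-base exon of Nr4a2-201. Counted from its annotated start codon, the reading frame ends after 392 codons, against 598 codons in Nr4a2-201 and Nr4a2-203. Nr4a2-206 has 3123 bases and Nr4a2-203 has 3422 between the same ends, so the 121 bases are not their only difference. Whether their frames share a start codon was not compared, so the shorter frame is not assigned to the early stop alone. The stop codon lies 51 bases before the last junction, and whether the transcript is degraded was not tested. The lines show the junction of exon 6 with exon 7 in both transcripts. Capitals mark the first of the bases left out in Nr4a2-201 and the stop codon in Nr4a2-206.
Nr4a2-201: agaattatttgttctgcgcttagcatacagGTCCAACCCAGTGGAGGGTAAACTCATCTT
Nr4a2-206: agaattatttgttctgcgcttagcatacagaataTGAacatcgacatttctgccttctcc

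These transcripts overlap almost fully. Nr4a2-201, Nr4a2-202, Nr4a2-203 and Nr4a2-206 each have 0 bases that are in no other annotated transcript, so their counts rest on junctions and on combinations of exons. In the alignment-free table Nr4a2-206 had 328 and 54.0 counts, 29.4% and 14.9% of the gene's counts, and the leading transcript by counts was Nr4a2-203 in both libraries, with 36.0% and 34.1%. By TPM the 182-base Nr4a2-204 led in that table, with 78.9% and 69.4% from 59 and 14 counts, while the aligned table gave it 0 counts in both libraries. So Nr4a2-206 had more than 10% of the counts of Nr4a2 in both tables and libraries, and its rank among the transcripts changed with the table.

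Grouped by first exon, the library difference of Nr4a2 in the aligned table lay mostly in transcripts of the distal start. Nr4a2-203 and Nr4a2-206 begin at 57124003, the start whose upstream sequence is printed above, with a first exon of 175 bases. Together they had 359 counts in replicate 1 and 60.6 in replicate 2, or 26.6 and 3.38 CPM, 7.87-fold less in replicate 2. Nr4a2-201 and Nr4a2-205 begin at 57115038 with a first exon of 321 bases. They had 176 and 167 counts, or 13.0 and 9.34 CPM, 1.39-fold less in replicate 2. The members of this proximal pair were unlike. Nr4a2-205, with 217 bases in no other transcript, had 3.31 and 0.80 CPM (posterior SD 2.75 and 1.91 counts). Nr4a2-201 had 9.70 and 8.54 CPM, so the small difference of the pair rests on this transcript. The distal start thus held 67.2% of the gene's counts in replicate 1 and 26.6% in replicate 2 (46.9 ± 28.7%). The split is uncertain, since the deposited posterior SDs of Nr4a2-203 and Nr4a2-201 were large. Nr4a2-203 had 142 counts (SD 51.65) in replicate 1 and 13.7 (SD 24.71) in replicate 2. Nr4a2-201 had 131 (SD 44.4) and 153 (SD 27.86). No SD is given for the grouped counts.

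In the alignment-free table the distal pair had 28.8 and 6.76 CPM, a 4.26-fold difference, and the proximal pair 9.08 and 5.51 CPM, a 1.65-fold difference. The distal share there was 65.4% and 49.0% of counts (57.2 ± 11.6%). That table also gave counts to 2 transcripts with first exons of their own, which the aligned table left at 0. Nr4a2-204 had 2.33 and 0.53 CPM, a 4.38-fold difference, and Nr4a2-202 3.82 and 0.99 CPM, a 3.85-fold difference. So the distal pair differed more than the proximal pair in both tables, but in the alignment-free table the distal difference was like that of these 2 minor transcripts. Within the proximal pair, Nr4a2-205 had 3.06 and 0.92 CPM there and Nr4a2-201 6.02 and 4.59 CPM. The difference was thus not confined to the distal start. No test of it was possible, and the grouping by first exon was chosen after these values were seen.

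**Figure D4:**
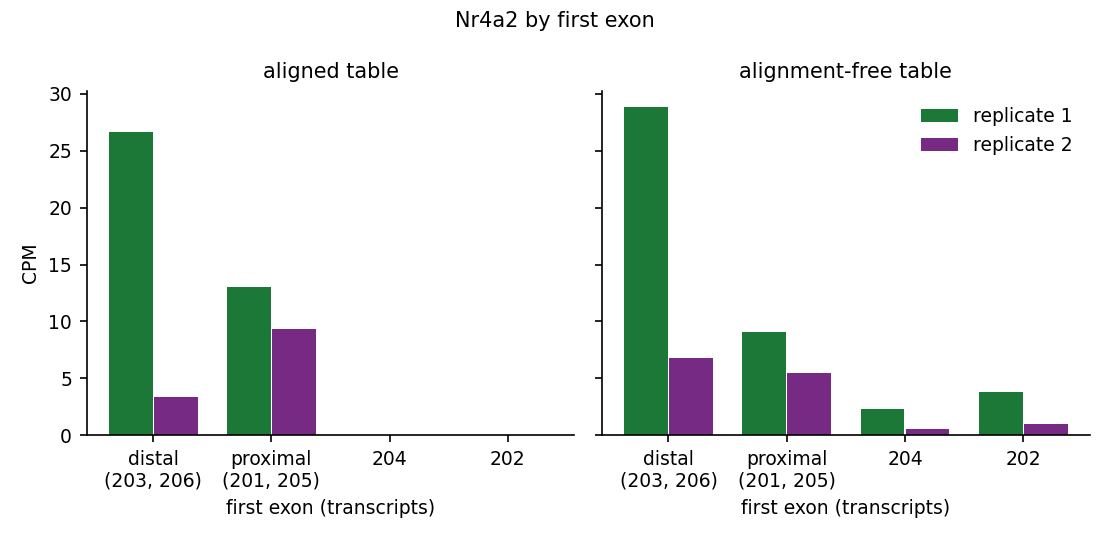
CPM of Nr4a2 by first exon, per library, in the aligned table (left) and the alignment-free table (right). Bars are single values with no error. In replicates 1 and 2 the distal pair stands at 26.6 and 3.38 CPM in the aligned table and at 28.8 and 6.76 CPM in the alignment-free table, and the proximal pair at 13.0 and 9.34 and at 9.08 and 5.51 CPM. Nr4a2-204 and Nr4a2-202 have values in the alignment-free table only, 2.33 and 0.53 CPM and 3.82 and 0.99 CPM.

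Nr4a3 was divided between a long coding transcript and short non-coding ones. Nr4a3-201, 5720 bases long, had 128 and 149 counts, 56.3% and 61.9% of the gene's counts, but only 19.5% and 27.9% of its TPM. Of the processed transcripts, Nr4a3-204 starts near it and had 36.5 and 17.1 counts (posterior SD 4.67 and 5.74). Nr4a3-202, which starts at 48051248, had 40.1 and 43.2 counts (posterior SD 6.49 and 7.03). By TPM, Nr4a3-204 led the gene in replicate 1 and Nr4a3-202 in replicate 2. These processed transcripts rest on few counts. Together they held 71.0 ± 7.93% of TPM and 29.4 ± 6.19% of counts. Among 5325 protein-coding genes with a processed transcript, the median share of TPM was 6.76%, and 98.3% of the genes lay below Nr4a3. By the alignment-free table the share of Nr4a3 was 68.1%, the median 18.5%, and 94.5% lay below. Its place among genes by share of counts was not worked out. The second coding transcript, Nr4a3-203, had 22.6 and 31.6 counts. The overlapping first exons of Nr4a3-201 and Nr4a3-204, the first of them beginning at 48045153, led transcripts that held 72.4% and 69.0% of counts, so this share was much alike in both libraries.

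The processed transcripts of Nr4a2 held 21.7 ± 3.54% of its TPM and 7.31 ± 1.48% of its counts, and 75.5% of the 5325 genes lay below that share of TPM. All of it in the aligned table was Nr4a2-205, a 1099-base transcript of the proximal start with 44.7 and 14.3 counts. Across the 3 genes, protein-coding transcripts held 86.8 ± 1.51% of the counts of Nr4a1, 62.1 ± 15.7% of those of Nr4a2 and 70.6 ± 6.19% of those of Nr4a3. Over all protein-coding genes they held 79.4 ± 0.75%.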

How the data were processed

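Both libraries were quantified by the authors on assembly mm10 with GENCODE M21, per the deposited readmes. The gene table and the first transcript table hold expected counts and TPM that the authors derived from transcriptome alignments. The transcript table also gives, per the file headers, the percent of the gene's TPM in each transcript, and both give posterior SDs of counts and interval bounds of TPM, which belong to a second estimate. The alignment-free table holds estimated counts and TPM that the authors made from the reads and an index. Not given in the sources used here: quantifier names and whether counting used strand (column names are those of RSEM and kallisto).

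CPM was computed from the counts over all annotated genes (13506939 and 17932332 in the gene table, 25317223 and 26308342 in the alignment-free table). Poisson intervals are exact at 95% and cover counting error only, since no molecular identifiers are recorded. Ratios used a pseudocount of 1 TPM and genes with 10 or more counts in each library, and called means over 2-fold. Shares by transcript type were set beside the same shares over protein-coding genes. Gene IDs, types and exons are from GENCODE M21, as are the junction sequences, and upstream sequences are from RefSeq (GRCm38.p6). Calculations used Python 3.11.15, and edgeR 4.0.16 (TMM) and DESeq2 1.42.0 (size factors) served only as scaling alternatives, on rounded counts. The ratio calculation was tested on simulated data.

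The 3 genes and the lists were chosen with earlier results of these data known. Named genes are the 3 genes, the up to 4 highest and the lowest of each list by mean TPM, and for each of the 3 the 3 protein-coding genes nearest in log2(TPM + 1) over both libraries. Some genes that this rule names are not reported here.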

Additional observations from a re-analysis of the deposited data

How the results depend on the processing

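Of 56 alternative values other than leaving out a library, 24 stayed within the spread between the libraries or the bounds set for counts, 32 moved and 0 reversed a called difference. With n = 2, leaving out a library lands within 1 SD of the mean by construction, so the 16 such levels and shares say nothing about stability. No paired analysis was possible because there is only 1 group. The cause of each change was not tested. The mean level moved from 389 to 305 TPM (Nr4a1) and from 9.40 to 23.0 TPM (Nr4a2) in the alignment-free table, and to 561 TPM for Nr4a1 without mitochondrial genes and genes under 200 bases. The alignment-free means join values far apart in replicates 1 and 2. These were 473 and 137 TPM for Nr4a1 (SD 238) and 43.0 and 2.97 TPM for Nr4a2 (SD 28.3). Lower alignment-free TPM in replicate 2 was not particular to them. It held for all 8 macrophage markers, with Lyz2 at 732 and 291 TPM. The alignment-free CPM of Nr4a1 was 627 and 692. In CPM the levels were 669.8, 26.2 and 15.1, and that of Nr4a3 moved to 18.6 in alignment-free CPM. Without replicate 1 or replicate 2, Nr4a2 ranged from 3.53 to 15.3 TPM, Nr4a3 from 4.20 to 8.69 TPM, the decay share of Nr4a2 from 19.7% to 35.9% and its distal share from 26.6% to 67.2%. The decay share of Nr4a2 was 5.03% of TPM in the alignment-free table. The retained-intron share of Nr4a1 was 15.3% there and 13.2% by counts. Processed transcripts held 79.4% of Nr4a2 there and 7.31% by counts, and 29.4% of Nr4a3 by counts. The ratios of Nr4a1, Nr4a2 and Nr4a3 were −0.31, −1.84 and −0.90 with no median subtracted, and the same with a median over all genes, which is 0. With TMM, and with DESeq2 size factors, Nr4a1 was 0.36 and Nr4a3 −0.11. In the alignment-free table Nr4a1 was −0.60 and Nr4a2 −2.28, and with a pseudocount of 0.1 TPM Nr4a1 was 0.23. Nr4a2 stayed over 2-fold lower in all 7 alternatives of its ratio. At 5 TPM, 13 other nuclear receptors were detected. The alternatives for the distal share, for alignment-free CPM and for the place of Nr4a1 among receptors were chosen after seeing the data. The shares of Nr4a2 and Nr4a3 rest on 227 to 535 counts a library.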
